A study of Drosophila melanogaster with 3 samples.

Results

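The 8 Hox genes of Drosophila melanogaster, lab, pb, Dfd, Scr, Antp, Ubx, abd-A and Abd-B, were examined for binding of achintya (achi) in whole prepupae. They were taken by name, as 8 of 13945 protein-coding genes. Each was given a window of its gene body and 5 kb to either side, and a binding site was counted where the summit, the base of highest signal within a region, fell in that window. The windows covered 417.5 kb of chromosome arm 3R in all, none overlapped another, and 22 of the 8998 summits of the authors' optimal list lay in them. Promoter summits were those no more than 500 bp from the transcription start site (TSS) of any protein-coding gene, and every other summit was called distal.

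Hox genes encode homeodomain transcription factors that give body segments their identity along the head to tail axis. In the fly they lie in 2 clusters. The Antennapedia complex holds lab, pb, Dfd, Scr and Antp, which pattern the head and anterior thorax, and the Bithorax complex holds Ubx, abd-A and Abd-B, which pattern the posterior thorax and the abdomen. Their expression is read out from long introns and intergenic regulatory DNA, and it is kept on or off by the trithorax and Polycomb groups of chromatin proteins. Hox proteins bind DNA together with the TALE-class homeodomain cofactors Extradenticle and Homothorax. Achi is itself a TALE-class protein, of the TGIF family, known for its role in spermatogenesis.

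The DNA bound by achi was precipitated from chromatin and sequenced (ChIP-seq), starting from whole prepupae of unknown age from pooled males and females. All samples carried the same transgene, achi with GFP at its C-terminus, and came from 1 group with 3 replicates that the labels call biological. The labels disagree on the antibody: the description has an anti-GFP antibody, which was followed here, and the antibody field has achi. The lists were made against a shared control, no precipitation from untagged flies was analysed here, and in whole animals the tissue that a summit came from cannot be told apart.

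In the optimal list, 6 of the 8 Hox genes had summits, in introns or downstream of the gene, and none had one at its own promoter. None of the 8 had an optimal summit within 500 bp of an own TSS, where 23.2% of all protein-coding genes had one, and 38.2% of the 1865 genes whose windows were at least as long as the shortest Hox window. A summit anywhere in the window was present for 6 of 8, against 55.9% of all genes and 78.6% of the long genes. A distal summit was present for the same 6 genes, against 28.4% of all genes and 62.8% of the long genes. Counts of this size over 8 genes that share 2 clusters describe these genes and were not tested. Of the 22 summits, 17 lay in introns, 5 in the flank downstream of the gene, and none in an exon or in the upstream flank. Of the 5 downstream, 3 were promoter summits of other genes, so the 19 distal summits were 17 in introns and 2 in the downstream flank. Over the long genes, 82.5% of 4402 pairs of a gene and a distal summit had the summit in the gene body, 10.3% in the upstream flank and 7.13% in the downstream flank.

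Sequences at 4 of these intronic summits are shown because they hold the strongest distal summit of Antp, of Ubx and of Abd-B, and a strong Antp summit that lacks all 12 sequence words searched for. Each is 201 bases of the plus strand of the Release 6 (dm6) genome from RefSeq, with the summit at its middle base. Capitals mark a match, on either strand, to one of the 12 words described further on.
Antp, strongest distal summit (chr3R:6912441-6912641): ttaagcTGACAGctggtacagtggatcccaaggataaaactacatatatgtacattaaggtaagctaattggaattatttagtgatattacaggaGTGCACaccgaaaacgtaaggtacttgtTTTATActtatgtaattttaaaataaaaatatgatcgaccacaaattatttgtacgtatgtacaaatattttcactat
Antp, summit without any of the words (chr3R:6951210-6951410): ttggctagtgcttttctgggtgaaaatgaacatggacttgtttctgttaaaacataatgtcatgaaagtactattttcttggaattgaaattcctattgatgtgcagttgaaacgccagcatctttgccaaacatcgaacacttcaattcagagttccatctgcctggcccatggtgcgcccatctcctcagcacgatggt
Ubx, intronic summit (chr3R:16718016-16718216): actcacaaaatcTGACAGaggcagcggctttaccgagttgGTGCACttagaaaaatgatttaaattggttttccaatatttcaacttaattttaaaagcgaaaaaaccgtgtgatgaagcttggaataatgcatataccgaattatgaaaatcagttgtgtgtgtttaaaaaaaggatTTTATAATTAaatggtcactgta
Abd-B, intronic summit (chr3R:16958171-16958371): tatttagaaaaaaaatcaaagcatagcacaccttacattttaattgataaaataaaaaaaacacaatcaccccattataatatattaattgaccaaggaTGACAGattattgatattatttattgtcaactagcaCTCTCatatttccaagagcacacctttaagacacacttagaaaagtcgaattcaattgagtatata
TGACAG, the textbook core word of TGIF-class and Meis-class homeodomains, is present in the first Antp sequence and in those of Ubx and Abd-B. In Abd-B it lies at the summit itself, with its centre 1.5 bp away, while in Antp and Ubx it lies 91.5 bp and 85.5 bp away. The strongest distal summits of lab, pb and Scr, which are not shown, had no TGACAG within 100 bp.

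**Figure D1:**
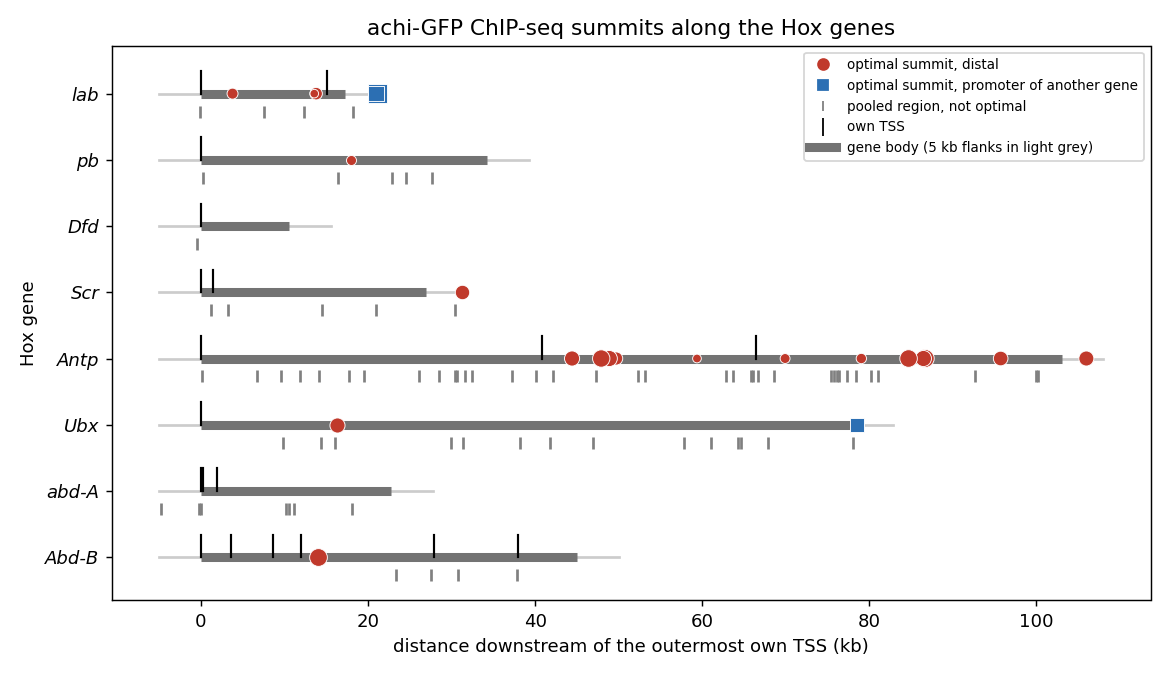
Map of the 8 Hox genes, each drawn from its outermost own TSS, with the distance downstream of it in kb on the horizontal axis. Circles are distal optimal summits and squares promoter summits of other genes, larger for a better rank; ticks below each gene are regions of the pooled list that did not reach the optimal list. Antp carried 12 of the 22 summits, and Dfd and abd-A carried none.

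The labial gene lab, which acts in the head and the midgut, had the densest window, with 5 summits in 27.2 kb (1.84 per 10 kb, higher than in 87.5% of the long genes). The gene (FBgn0002522) lies at 3R 6661427 to 6678590 on the minus strand. Its replicate top lists, the 8998 strongest regions of each replicate, held 4, 5 and 3 summits in the window in replicates 1, 2 and 3 (4.0 ± 1.0, SD, n = 3). The strongest summit of any Hox window was here, at 6657458, with rank 411 of 8998 by the authors' signal and ranks 363, 407 and 554 in the replicates' own lists of 30000 regions. It lay 3969 bp downstream of lab, 16 bp from a TSS of CG1307, in the divergent promoter that CG1307 shares with twr. A second promoter summit 201 bp away, at 6657659, belonged to the same pair of genes. It was less steady, with ranks of 3869, 2876 and 6650. The window of lab thus took in 2 summits that sat at other genes' promoters, and 3 that were distal.

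All 3 distal summits of lab lay in the intron from 6662987 to 6677130, between both of its TSSs. The nearest to an own TSS, at 6664793, lay 1339 bp away and had ranks of 6846, 6588 and 7216. Its neighbour at 6665013 ranked 6846, 6588 and 12881, and in replicates 1 and 2 these ranks came from the very region that held 6664793, since a summit took the strongest region containing it. Replicate 2 also had a region of its own at the neighbour, with rank 8931. The third, at 6674795, had ranks of 6773, 8000 and 9041 and missed the top list of replicate 3. Among these intronic summits 6193 was the best rank in the optimal list.

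The proboscipedia gene pb, which specifies mouthparts, had 1 weak summit (FBgn0051481, 3R 6707800 to 6742063, minus strand). It lay at 6724040, in the intron from 6711951 to 6727217, 18023 bp from the only pb TSS. The summit nearest to that TSS, at 17586 bp, was outside the window, at the promoter of bcd. The rank of the pb summit was 7915, with 8347, 10884 and 7191 in the replicates, so replicate 2 left it out of its top list. Deformed (Dfd), which acts in the posterior head segments, had no optimal summit (FBgn0000439, 3R 6791836 to 6802428, plus strand). The region closest to the optimal list was at its own promoter, 440 bp upstream of the TSS at 6791396. It ranked 9150 in the pooled list, with a −log10 q-value of 2.57, and 10750, 8688 and 9411 in replicates 1, 2 and 3. In replicate 2 it entered the top list, which made Dfd the single Hox gene with a top-list summit at its own promoter in any replicate.

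Sex combs reduced (Scr), which specifies the labial segment and the first thoracic segment, had 1 summit (FBgn0003339, 3R 6823120 to 6849981, minus strand). It lay 4361 bp downstream of the gene at 6818759 and ranked 4592, with 6281, 5433 and 3932 in the replicates. All 3 top lists held it, and none held another summit in the Scr window. The optimal list had no summit within the 26.9 kb of the gene itself.

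Antennapedia (Antp), which specifies the second thoracic segment, held 12 summits, more than the other 7 genes together, in the longest window, of 113.0 kb (FBgn0260642, 3R 6896253 to 6999228, minus strand). The top lists held 11, 10 and 11 (10.67 ± 0.58, SD, n = 3). At 1.06 summits per 10 kb its density was above that of 68.8% of the long genes and below that of 31.2%. All 12 were distal, 11 in introns and 1 at 6893255, 2998 bp downstream of the gene. Those 11 also lay within another protein-coding gene, CG46458, which shares the Antp TSS at 6958370. The window of CG46458 held 12 summits in 72.1 kb (1.66 per 10 kb). The Antp summits therefore cannot be credited to Antp alone.

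The Antp summits were unevenly placed along the gene. From the downstream flank to the innermost TSS at 6932840 there were 7 summits in 41.6 kb (1.68 per 10 kb), and between that TSS and the middle one at 6958370 there were 5 in 25.5 kb (1.96 per 10 kb). The 40.9 kb between the middle TSS and the outermost one, at 6999228, held none. CG46458 has a TSS at the same middle position, and all the intronic Antp summits lay within it. Placement along Antp and placement along CG46458 therefore cannot be told apart. In the top lists the first segment held 7, 5 and 6 summits in replicates 1, 2 and 3, the second held 4, 5 and 4, and the third held 0, 0 and 1. The 1 in replicate 3 was at 6989576, with rank 8021. Below the threshold the third segment was not empty, since the pooled list had 15 regions in it, against 20 and 13 in the other segments. The best of the 15, at 6989646, ranked 10589 in the pooled list and 22787, 9302 and 8021 in the replicates.

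The 3 strongest Antp summits lay in groups with others close by. The first group was in the intron from 6910472 to 6931518, at 6912541, 6912751 and 6914531. Its leader at 6912541 was the strongest distal summit of the Hox genes, with rank 1036 and ranks of 1225, 823 and 1131 in the replicates. The one 210 bp away ranked 4043, 1843 and 3974, and the one at 6914531 ranked 1389, 1771 and 1648. The replicates thus placed 6912541 and 6914531 among their strongest 2000 regions each time, and 6912751 only in replicate 2. A second group lay between the innermost and middle TSSs at 6949522, 6950345 and 6951310, with gaps of 823 bp and 965 bp. Its strongest member, at 6951310, ranked 2206, 1665 and 1558. The member at 6950345 ranked 5326, 2776 and 2389, and that at 6949522 ranked 4892, 6081 and 7704. Both were in all 3 top lists with a wider spread than the leader.

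The other 6 Antp summits stood outside these groups. The summit at 6939852 ranked 10327, 9702 and 9606 and was the single Hox summit in no top list, although each replicate's whole list had a region there. The summit at 6920183 reached the top list in replicate 1 alone (6461, 9551 and 9724), and the one at 6929305 in replicates 1 and 3 (8729, 9238 and 7570). That last summit was also the nearest to any Antp TSS, at 3535 bp. The remaining 3, at 6893255, 6903509 and 6954801, were in all 3 top lists, with optimal ranks from 3989 to 4429.

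**Figure D2:**
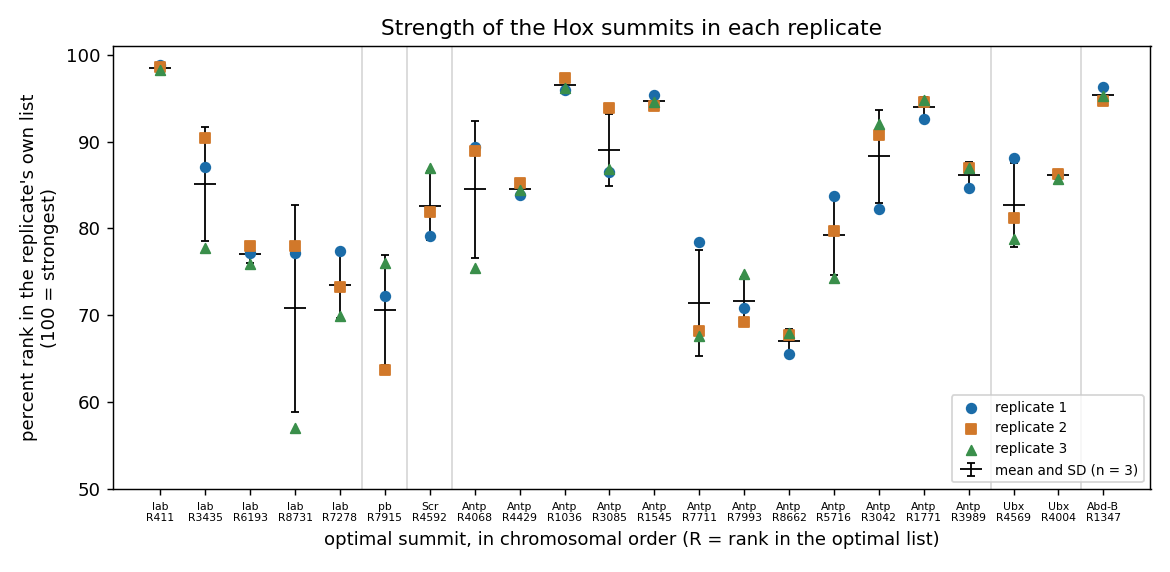
Percent rank of each of the 22 Hox summits in the 3 replicates, 100 being the strongest of that replicate's 30000 regions, with the mean and SD as bars (n = 3). The label under each summit gives its gene and its rank in the optimal list. The strongest summits, such as rank 411 at lab (98.5 ± 0.33), varied little, and the widest spread was at lab rank 8731 (70.8 ± 11.87).

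Ultrabithorax (Ubx), which specifies the third thoracic and first abdominal segments, had 2 summits in a window of 87.8 kb (FBgn0003944, 3R 16656623 to 16734426, minus strand). The top lists held 3, 2 and 2 (2.33 ± 0.58, SD, n = 3). One, at 16718116 in the intron from 16710613 to 16725255, lay 16310 bp from the Ubx TSS and ranked 4004. Its ranks of 4097, 4117 and 4293 were among the steadiest of the Hox summits (86.1 ± 0.36 in percent rank). The other, at 16655877, lay 746 bp downstream of Ubx and 215 bp from a TSS of modSP, and ranked 3570, 5630 and 6366. An annotated INE-1 transposon lies at that summit, the only one of the 22 with a transposon, and the deposited lists do not say how reads from repeats were placed. Below the threshold the best region, at 16666598, ranked 8394, 10896 and 10802 and entered the top list of replicate 1 alone.

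For abd-A, which specifies the middle abdominal segments, the window of 32.8 kb held no optimal summit and no top-list summit in any replicate (FBgn0000014, 3R 16807214 to 16830049, minus strand). The pooled list had 7 regions in it. The best was at 16834810, 4761 bp upstream, with pooled rank 11768 and replicate ranks of 10062, 23982 and 11536. The nearest strong summit, at 16798566, was 8648 bp downstream of abd-A and outside its window. It ranked 1485, with 1249, 1874 and 1697 in the replicates, which made it the strongest summit between Hox windows in either complex.

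Abdominal B (Abd-B), which specifies the posterior abdomen and genitalia, had 1 summit, but a strong one (FBgn0000015, 3R 16927212 to 16972236, minus strand). At 16958271, in the intron from 16943300 to 16959971, it ranked 1347, with 1109, 1591 and 1443 in the replicates (95.4 ± 0.82 in percent rank). It lay 2010 bp from the nearest of the 6 Abd-B TSSs, at 16960281. The top lists counted 2, 3 and 2 summits (2.33 ± 0.58, SD, n = 3), more than the optimal list. In replicates 1 and 2 a second region overlapped the same place, with ranks 8027 and 6091, and replicate 2 also held a region at 16941551 with rank 8122. Replicate 3 alone placed a region at 16970076, 1502 bp from an Abd-B TSS, in its top list with rank 4511, and the pooled list had no region with a summit there.

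By the number of top-list summits the genes fell in the order Antp, lab, Ubx together with Abd-B, Scr, pb, Dfd and abd-A. Antp lay above all others in each replicate. The ranges of lab (3 to 5) and Ubx (2 to 3) touched, although lab had more than Ubx in each of the 3 replicates. Scr, pb and Dfd, with means of 1.00, 0.67 and 0.33 summits, had overlapping ranges, and neighbours among these 3 did not differ beyond the spread between replicates. The optimal count was outside the replicates' range for Antp, by 1 above, and for Abd-B, by 1 below.

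**Figure D3:**
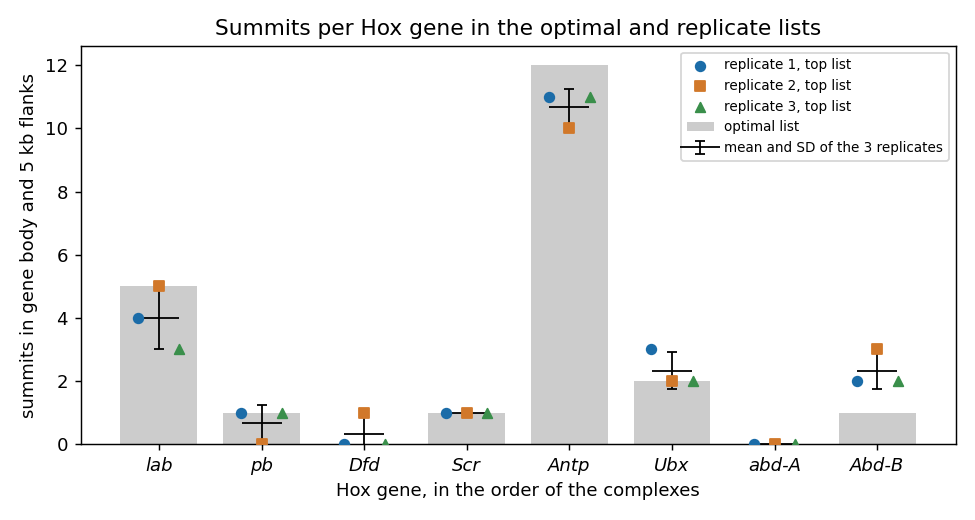
Number of summits in the window of each Hox gene, in the order of the genes along the complexes. Bars are the optimal list, points the top lists of the 3 replicates, and the cross with its bar their mean and SD; Antp had 12 optimal summits and 10 or 11 in each replicate, and abd-A had none in any list.

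Across the 22 summits strength was close to that of the whole list. The median rank was 4248, with a range of 411 to 8731, beside 4500 over all optimal summits. For the 19 distal ones it was 4429, beside 4788 over all 6070 distal summits. In the replicates the median percent rank of the Hox summits was 84.2, 85.7 and 81.6 (83.9 ± 2.09, SD, n = 3), and that of all optimal summits 85.1 ± 0.269. These medians differed by less than the spread between replicates. Within the strongest 2000 of the list there were 5 Hox summits (22.7%), against 22.2% of all summits by construction, and within the strongest 1000 there was 1, the promoter summit near lab. The Bithorax complex contributed 1 of the 5, at Abd-B, and Antp 3.

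Recovery in the replicates also matched the list as a whole. Of the 22 summits, 16 lay in the top lists of all 3 replicates (72.7%, Wilson 95% interval 51.8% to 86.8%), against 72.1% of all optimal summits. Another 4 were in 2 top lists, 1 was in 1 and 1 was in none. In the whole lists of 30000 regions all 22 had a region in every replicate, against 96.6% of all summits. The optimal list was made from these replicates, so recovery is no independent measure. Counted without reference to the optimal list, the top lists placed 22, 22 and 20 summits in the Hox windows (21.3 ± 1.15, SD, n = 3).

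Promoter summits were 3 of the 22 (13.6%, Wilson 95% interval 4.75% to 33.3%), against 32.5% of all optimal summits, just inside the interval. The interval treats the summits as independent, although 12 lay in the Antp window and 2 of the 3 promoter summits lay 201 bp apart. It is therefore no test of a difference. In the replicates' top lists promoter summits numbered 3, 4 and 3, or 15.6% ± 2.36 (SD, n = 3). The fourth in replicate 2 was that of Dfd, and the others belonged to CG1307, twr and modSP. In the pooled list, which extends far below the threshold, 7 of the 8 genes had a region at an own promoter, against 38.6% of all protein-coding genes and 69.7% of the long genes. Their pooled ranks were 9150 for Dfd, 12583 for Abd-B, 14176 for Scr, 15308 for abd-A, 15733 for lab, 21449 for Antp and 22291 for pb. Only Ubx had none in the list of 30000. None of these 7 passed the authors' threshold.

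The 2 complexes differed in how densely they were covered. From lab to Antp, flanks included, there were 23 optimal summits in 347.8 kb, or 0.661 per 10 kb, close to the 0.672 of all arms and the 0.639 of 3R. Of these 23, 12 lay in the Antp window alone, at 1.06 per 10 kb of its 113.0 kb. From Ubx to Abd-B there were 8 in 325.6 kb, or 0.246 per 10 kb. The top lists held 21, 23 and 20 summits in the Antennapedia complex (21.33 ± 1.53, SD, n = 3) and 10, 7 and 9 in the Bithorax complex (8.67 ± 1.53), so the ranges did not overlap. The 8 windows together had 0.527 summits per 10 kb, and 0.328 without Antp. For distal summits alone the windows had 0.455 per 10 kb, beside 0.453 over all arms.

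**Figure D4:**
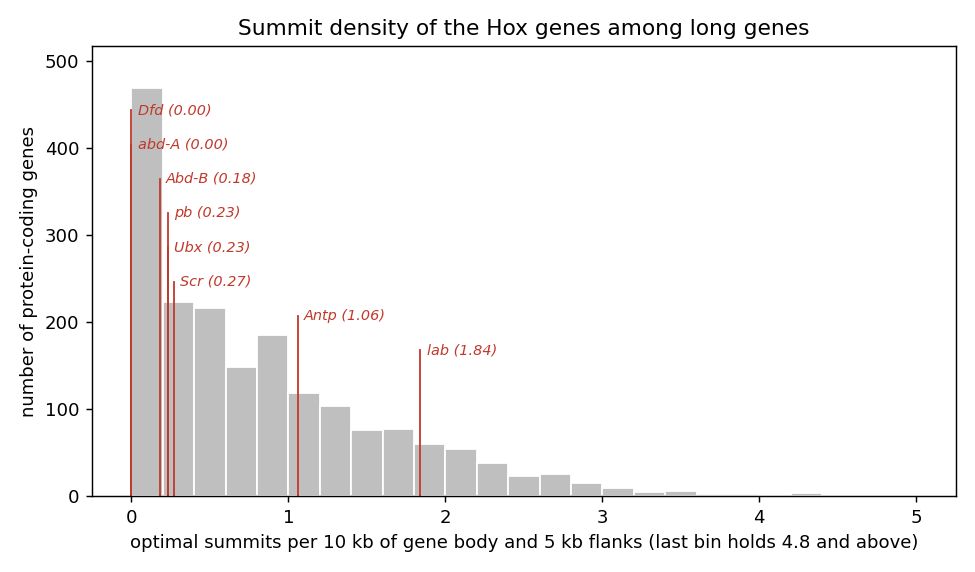
Histogram of optimal summits per 10 kb of window for the 1865 protein-coding genes with windows of at least 20.6 kb, with the 8 Hox genes as labelled lines (their heights carry no value). Scr, pb, Ubx and Abd-B lie between 0.18 and 0.27, Dfd and abd-A at 0, Antp at 1.06 and lab at 1.84.

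Between the Hox windows there were 9 further summits, 4 in the Antennapedia complex and 5 in the Bithorax complex. The anterior morphogen gene bcd, a homeobox gene of the complex that is not a Hox gene by function, had a promoter summit at 6759649 with rank 4872, and another summit 1471 bp from its TSS had rank 4868. The cell adhesion gene Ama had a promoter summit at 6763086 with rank 1852. The homeobox genes zen, zen2 and ftz, which lie among the Hox genes, had no summit in their windows. In the Bithorax complex all 5 were distal. The summit at 16771778 lay in lncRNA:bxd, a noncoding gene upstream of Ubx, with ranks of 8206, 11936 and 7318. Summits at 16861385, 16869482 and 16908009 lay in lncRNA:iab8, the long noncoding transcript between abd-A and Abd-B. Those at 16861385 and 16869482 also lay in the protein-coding gene MSAmiP, and both were missed by the top list of replicate 2. The summit at 16908009 ranked 4142 and was in all 3 top lists.

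Around the 19 distal Hox summits, 12 sequence words were searched for on both strands within 100 bp. TGACAG was present at 5 (26.3%, Wilson 95% interval 11.8% to 48.8%), against 5.95% of all 6070 distal summits. In flanks, windows of the same width 1000 bp to either side, it was in 2.63% for the Hox summits, which was 1 window. In the flanks of all distal summits it was in 7.64%, so over the whole list it was less frequent at summits than beside them. GTGCAC had led distal summits in an earlier account of these data and so is not independent of them. It was present at 6 (31.6%, interval 15.4% to 54.0%), against 9.75% of all distal summits. Its flank shares were 5.26% for the Hox summits and 4.33% for all distal summits. Within 50 bp TGACAG was present at 2 of 19 (10.5%), against 2.77% of all distal summits, and within 200 bp at 7 (36.8%), against 13.1%. Within 50 bp GTGCAC was present at 1 (5.26%), against 3.00%, and within 200 bp at 8 (42.1%), against 17.9%. A match is a run of letters, and binding at it was not measured.

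The 5 distal summits with TGACAG were 3 in Antp (6893255, 6903509 and 6912541), 1 in Ubx and 1 in Abd-B. They ranked from 1036 to 4429, and all 5 were in the 3 top lists. The 14 without it ranked from 1545 to 8731, with a median of 5954 against 4004, and 8 were in the 3 top lists. Over all distal summits the median rank was 4788, and 71.4% were in the 3 top lists. Whether rank goes with the word was not tested. The promoter summit near lab at rank 411 also held TGACAG, 18.5 bp from the summit. No intronic summit of lab and neither the pb nor the Scr summit held it.

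Words of Hox proteins themselves and the remaining words were counted at the distal Hox summits too. TGATNNAT, bound by Extradenticle with a Hox partner, was at 1 (5.26%), against 15.8% of all distal summits. TAATTA, the core word of many homeodomains, was at 3 (15.8%), against 17.6%. All 3 were at Antp or Ubx. Of the words of Abd-B type, TTTATGG was at 2 (10.5%, against 4.99%) and TTTACGA at none (against 2.54%). GAGAG of the GAGA factor was at 6 (31.6%, against 21.6%), and GCCAT, the core of Pleiohomeotic, at 5 (26.3%, against 23.9%). TATAAA was at 9 (47.4%, against 38.0%), AGTGTA at 5 (26.3%, against 19.3%), ACACTG at 2 (10.5%, against 16.8%) and TATCGATA, bound by DREF, at none (against 0.395%). In the earlier account of these data the word AGTGTA and the word ACACTG had also led distal summits. Both words are therefore not independent of the data either. Over all 22 summits 19 held at least 1 of the words. The distal windows were rich in A and T, with a median GC content of 31.8% against 43.0% in their flanks, and all distal summits had 33.8% and 41.0%. The part of base composition in the word counts was not tested.

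Genes that act with the Hox genes were counted in the same way. Among the Hox cofactors 2 of 6 had a summit at an own promoter (exd and tio), and hth, partner of exd, had 21 distal summits in 142.0 kb, or 1.48 per 10 kb, with none at a promoter. Of the 19 Polycomb and trithorax genes 10 had an own-promoter summit and 16 (84.2%) a summit in the window, led by ph-p and trx with 8 each. A summit in the window was present for 55.9% of all genes and 78.6% of the long genes. The insulator protein genes had 5 of 11 with an own-promoter summit, and pita led with 4 summits. Of 17 Hox target and patterning genes only Dll and cad had an own-promoter summit, while 10 (58.8%) had a distal summit, led by bab1 with 12. Among 27 imaginal patterning transcription factors 10 had an own-promoter summit and 17 (63%) a distal one. A distal summit was present for 28.4% of all genes and 62.8% of the long genes, so both lists were near the share of the long genes. Both hold bab1, bab2, vg, kn, Dll, ap, dac and salm, so their shares are not independent of each other. Of the 7 TALE genes achi, vis and exd had an own-promoter summit. The Hox genes, with 0 of 8, were the only list of these without one, beside 23.2% over all genes and 38.2% over the long genes. Their median density of 0.23 summits per 10 kb compared with 0.63 over all genes and 0.64 over the long genes.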

How the data were processed

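Peak lists of achi-GFP ChIP-seq in dm6 coordinates were analysed, and no reads. Per the file headers and labels, the authors made replicate and pooled lists of 30000 regions against a shared control and derived the optimal list of 8998 by thresholding the irreproducible discovery rate. Aligner and peak caller were not given in the sources used here, and read depth is unknown. The deposited signal value is the authors' own score for each region, used only for ranks within a list. The deposited −log10 q-values are the authors' too, and 7035 optimal regions share the maximum.

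Summits were placed on Ensembl release 115 genes, and sequences came from the RefSeq Release 6 genome. An optimal summit took the rank of the strongest replicate region containing it. The 46 repeated intervals were kept, each with its own summit. Wilson intervals are 95% and cover counting error only. Described in full were the strongest summit of each window, those in the strongest 1000 and those nearest to own TSSs; from the other lists, genes with own-promoter or most summits. The members, lists and words were chosen with earlier results of these data known. With 1 group nothing was tested. Functions were tested on simulated data. Python 3.11.15, numpy 2.4.6, pandas 2.3.3, scipy 1.17.1 and matplotlib 3.10.9 were used. Lists in dm3 coordinates were not used here.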

Additional observations from a re-analysis of the deposited data

How the results depend on the processing

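Keeping only the stronger 50% of optimal summits left 12 of the 22 Hox summits. Promoter summits numbered 1 with a promoter window of 200 bp, 0 with no flank and 1 with a flank of 2000 bp, instead of 3. With replicate lists of 4499 regions, 7 summits were in all 3 instead of 16. The median rank was 3518 by −log10 q and 5484 by the signal of replicate 3, instead of 4248. A tie sets the 3518, since 16 of the 22 summits share the maximum −log10 q, as do 78.2% of all optimal summits. That value therefore tells nothing of the Hox summits in particular. Own-promoter summits were found for 1 gene in the top list of replicate 2 and for 7 in the pooled list, instead of 0. Summed over the 12 words, 52 matches of a word and a summit became 27 within 50 bp. Leaving out each replicate in turn, with summits required in the top lists of both others, left 16 to 18 summits (and 16 to 18 recovered in both), 3 promoter summits, a median rank of 3712 to 3996, 40 to 45 word matches and 0 own promoters; the last was chosen after seeing the data. The lab count fell to 3 without replicate 1 or 2, and that of pb to 0 without replicate 1 or 3. With flanks of 10000 bp abd-A gained 1 summit, and with 2000 bp Scr lost its own. A further 39 settings of these 6 summaries, those that left out a replicate among them, were not counted as moved. Not all of the 39 were close. Word matches numbered 73 within 200 bp instead of 52, and 22 summits instead of 16 were recovered with all regions. No paired analysis was possible because there was 1 group. The p-value column held no values, and ranking by it was not run. Depth is unknown, so weak and absent binding at Dfd and abd-A cannot be told apart.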
